A study of Mus musculus with 24 samples.

Results

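The comparison of 1 µM GSK2256098 with DMSO rested on 6 of the 24 libraries of a study of drugs against focal adhesion kinase (FAK), 3 treated and 3 control, chosen by the treatment named in their labels, and took in all 16070 genes that passed the filter on low counts. RNA was sequenced from MS03 cells, an immortalized mouse Schwann cell line of genotype Nf2-/-, made by Cre infection of cells that carried floxed *Nf2*. Control and treated cells therefore shared the *Nf2* deletion as well as the medium with 10% serum, and the controls received DMSO, the solvent of the drugs, for the same 24 h. The other groups, 3 libraries each, received the kinase inhibitors defactinib, VS-4718 or IN10018 (ifebemtinib in the study's methods) at 1 µM, or 1 of 3 FAK degraders, and only the kinase inhibitors, matched in dose and time, are compared below. All libraries came from 1 cell line, so the results describe that line, and since the labels call the replicates biological without naming separate cultures, p-values measure the spread between these libraries.

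FAK, encoded by *Ptk2*, is a cytoplasmic tyrosine kinase that gathers at focal adhesions when integrins bind the extracellular matrix, where it phosphorylates itself, recruits the kinase SRC and passes signals to the ERK and PI3K pathways and to the actin cytoskeleton. GSK2256098 binds the kinase domain and blocks its activity without removing the protein, so its effect on RNA is a downstream readout and the level of *Ptk2* is no check of inhibition. In Schwann cells, integrin and FAK signalling helps cells sort axons and lay down myelin, and Merlin, the product of *Nf2*, restrains growth signals from adhesions and receptors at the membrane.

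The total count per library ran from 22952048 to 27449516 with DMSO and from 22673259 to 25156133 with GSK2256098. The libraries held the RNA of Schwann lineage cells. Of 10 Schwann cell markers 9 were tested, and their summed level was 56.2 to 60.8 CPM (counts scaled to library size) with DMSO and 79.8 to 84.2 CPM with GSK2256098, although *S100b* lay under 0.5 CPM in all 6 libraries. The marker not tested, *Gap43*, had 3 to 6 counts. Other Schwann cell genes were also near 0 in these libraries, *Mag* with 0 counts, *Gjb1* and *Fabp7* with at most 1 and *Gfap* with at most 7. Of markers of other cells, 8 fibroblast markers summed to 336 to 357 CPM with DMSO and 429 to 449.9 CPM with GSK2256098, nearly all of it *Col3a1*, with *Dcn*, *Lum* and *Dpt* at 0. The 10 macrophage markers summed to 3.75 to 4.01 CPM with DMSO and 4.19 to 4.48 CPM with GSK2256098, with *Ptprc*, *C1qa*, *C1qb* and *Tyrobp* at 0, and 8 neuron markers to 2.75 to 3.02 CPM and 3.13 to 3.57 CPM, with *Rbfox3* and *Isl1* at 0. These small sums were higher with treatment without overlap, and their part in the results was not tested. The lists for T cells, endothelial cells and melanocytes summed to at most 0.875 CPM. GSK2256098 replicate 1 stood apart from replicates 2 and 3, since a chi-square test of its counts over genes gave 6.9 and 9.44 times its degrees of freedom against 1.97 between the latter. Without small RNA genes the values were 5.89, 7.83 and 1.82. With *Lars2* and the loci *Gm42418* and *Gm26917*, picked after their values were seen, left out as well, they were 1.96, 2.4 and 1.56. Small RNA genes, most of which lack a poly(A) tail, were set aside from the genes described. Reads of mitochondrial genes made up 3.03 to 3.06% of counts with DMSO and 3.22 to 3.35% with GSK2256098, without overlap, and whether this share bears on the results was not tested.

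The drug's target was measured first. *Ptk2* (chr15:73205102-73423280, GRCm38, minus strand) had 92.9, 95.4 and 97.7 CPM with DMSO and 88.7, 84.7 and 88.1 CPM with GSK2256098. All treated libraries lay below all controls, by a small step (log2 fold change −0.13, standard error 0.035, edgeR adjusted p = 0.0101). The call was lost without GSK2256098 replicate 2 (edgeR adjusted p = 0.0755) or DMSO replicate 3 (edgeR adjusted p = 0.059), within a range of 0.00294 to 0.0755 over the alternatives. An exact two-sided permutation test of 3 against 3 libraries gave p = 0.1, the smallest it allows. *Nf2* gave 184, 179 and 178 CPM with DMSO and 186, 189 and 176 CPM with GSK2256098 and did not pass the test (edgeR adjusted p = 0.706). Counts per gene cannot show which of its exons were deleted.

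The response was broad and shallow. Of 16070 genes tested, 2001 (12.5%) passed an adjusted p of 0.05 in edgeR's quasi-likelihood test and are called here, 1022 higher (6.36%) and 979 lower (6.09%) with GSK2256098. The median change was 0.20 on the log2 scale among the higher genes, which is 1.15-fold, and −0.17 among the lower ones. Only 34 genes (0.212%) were both called and at least 2-fold apart, 22 of them higher and 12 lower. Most of these 34 fell outside the rule for naming the largest changes. It asked for a mean of at least 5 CPM and groups without overlap, and left out predicted genes, small RNA genes and pseudogenes. The 3 treated libraries lay wholly outside the range of the 3 controls for 5008 genes (31.2%), and 3897 genes (24.3%) had an unadjusted p under 0.05. Without GSK2256098 replicate 1 the calls were 815 higher and 807 lower, and without replicate 3 they were 609 higher and 689 lower. The called higher genes had a median GC content of 53.8% and the called lower genes one of 47.1%, against 49.4% over all genes tested. The slope of a library's log2 level on GC content, per 10 percentage points, was −0.029 to −0.021 with DMSO and 0.020 to 0.031 with GSK2256098. It spanned −0.038 to 0.019 among the defactinib libraries and 0.013 to 0.093 among those of VS-4718. Whether treatment moved base composition was not tested. With trends on GC content and transcript length removed, an alternative added after seeing the data, 847 genes were higher and 1178 lower.

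**Figure D1:**
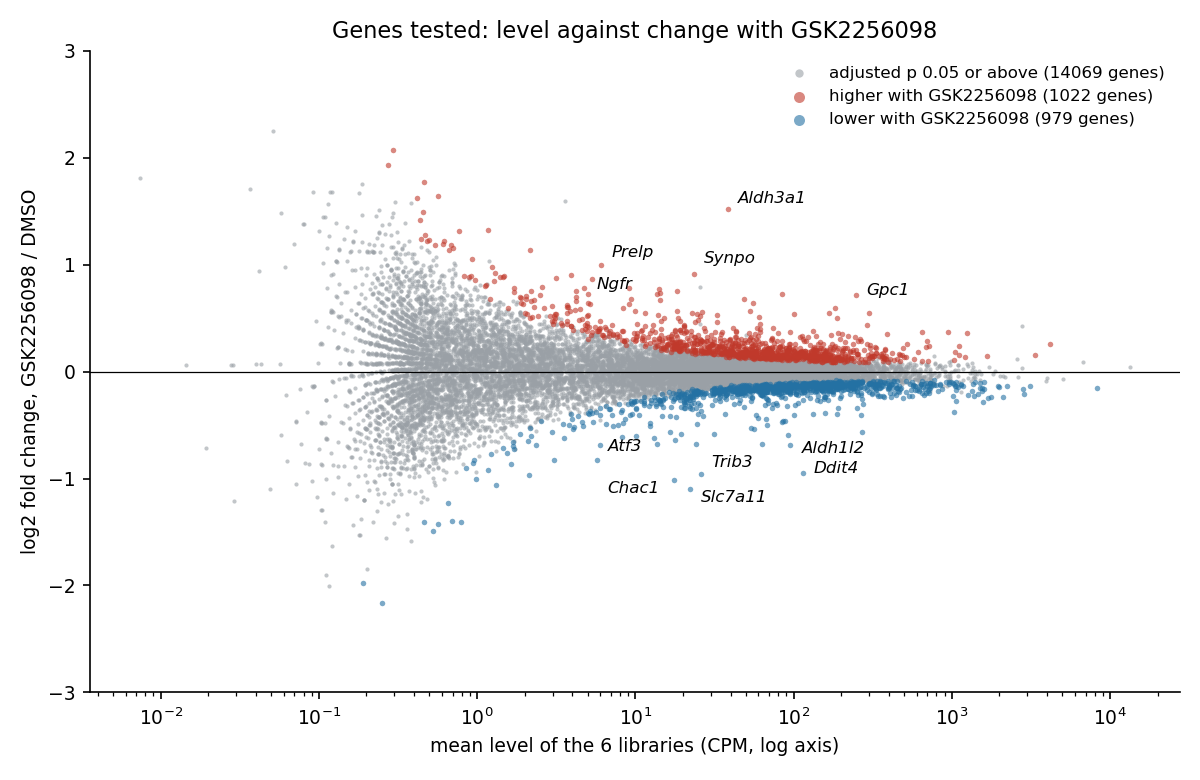
Mean level over the 3 DMSO and 3 GSK2256098 libraries (CPM, log axis) against the log2 fold change of GSK2256098 over DMSO, 1 point per gene tested, red where called higher (1022 genes) and blue where called lower (979 genes). Most called genes lie within 1 log2 unit of 0, and among genes of 5 CPM or more *Aldh3a1* reaches the highest rise and *Slc7a11* the deepest fall.

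The gene lists were chosen with earlier results of these data known, so a list's share beside that of all genes is a description. The list with the largest share of called members was that of genes driven by ATF4, which fell. ATF4 is the transcription factor of the integrated stress response: phosphorylation of eIF2α lets its mRNA be translated, and it then raises genes for amino acid uptake and synthesis, transfer RNA charging and stress signalling. Of 32 members tested, 29 fell and 0 rose, against 6.09% of all genes that were lower, and the median log2 fold change of the list was −0.33 against 0.0026 over all genes. The members that did not pass were *Wars* (−0.10, edgeR adjusted p = 0.0519), *Slc7a3* (0.0080, edgeR adjusted p = 0.99) and *Cebpb* (0.45, edgeR adjusted p = 0.0638). Without GSK2256098 replicate 1, 29 members fell and *Cebpb* was called higher. With the GC and length trends removed, 30 fell and 0 rose.

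The bases before the transcription start of the 4 members with the largest falls are shown because ATF4 binds a composite element whose core can be written TGATGNAA, or TTNCATCA on the other strand. They are the 250 bases upstream of the RefSeq start, 5′ to 3′ on the gene's strand (GRCm38.p6), in lower case with each match on either strand in capitals: *Slc7a11* at chr3:50443614-50443863 (minus strand), *Chac1* at chr2:119350992-119351241 (plus strand), *Trib3* at chr2:152344061-152344310 (minus strand) and *Ddit4* at chr10:59951771-59952020 (minus strand).
Slc7a11: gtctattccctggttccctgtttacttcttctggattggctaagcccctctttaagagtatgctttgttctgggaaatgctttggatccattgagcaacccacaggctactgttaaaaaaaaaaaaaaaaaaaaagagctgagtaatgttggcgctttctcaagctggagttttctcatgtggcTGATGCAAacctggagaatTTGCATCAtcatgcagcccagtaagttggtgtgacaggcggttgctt
Chac1: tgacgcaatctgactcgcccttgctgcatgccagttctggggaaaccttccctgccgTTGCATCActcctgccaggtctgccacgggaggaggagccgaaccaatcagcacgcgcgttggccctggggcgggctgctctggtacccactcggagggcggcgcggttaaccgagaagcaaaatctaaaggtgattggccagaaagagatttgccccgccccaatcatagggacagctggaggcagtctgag
Trib3: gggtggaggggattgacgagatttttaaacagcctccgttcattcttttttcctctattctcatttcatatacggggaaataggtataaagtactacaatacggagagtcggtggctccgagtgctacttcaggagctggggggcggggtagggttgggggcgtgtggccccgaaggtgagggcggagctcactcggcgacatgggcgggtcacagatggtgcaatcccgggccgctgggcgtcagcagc
Ddit4: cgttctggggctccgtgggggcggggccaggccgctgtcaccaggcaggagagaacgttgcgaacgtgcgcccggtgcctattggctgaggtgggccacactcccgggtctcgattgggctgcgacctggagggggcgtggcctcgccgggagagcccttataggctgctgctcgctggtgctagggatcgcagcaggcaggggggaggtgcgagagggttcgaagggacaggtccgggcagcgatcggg

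The *Slc7a11* window held 2 matches in opposite orientation, the nearer starting 47 bases before the start, and the *Chac1* window held 1. The windows of *Trib3* and *Ddit4* held none, which says only that these letters are not in this stretch. Of the 29 members that fell, 24 had an entry in the promoter table and 9 of these (37.5%) held the motif, as did 36% of the 25 tested members with an entry, against 3.91% of 27025 genes with a window of the same length. A match is a description of the sequence and not evidence that the factor was bound. The list was made of genes driven by ATF4, so its excess over all genes was built in and tells nothing of the drug. The 27025 genes also include genes not tested here.

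*Slc7a11*, the light chain of the cystine/glutamate antiporter that feeds glutathione synthesis, had 31.3, 29.8 and 29.7 CPM with DMSO and 14.6, 12.8 and 14.9 CPM with GSK2256098. All treated libraries lay far below all controls, a 2.14-fold fall (log2 fold change −1.10, standard error 0.060, edgeR adjusted p = 7.87e-17). The 12 largest falls, *Slc7a11*, *Chac1*, *Trib3* and *Ddit4* among them, were named only where the groups did not overlap, so that separation was required. *Chac1*, which degrades glutathione, went from 23.3, 25.1 and 21.9 CPM to 11.6, 11.4 and 11.8 CPM, 2.02-fold lower (log2 fold change −1.02, standard error 0.075, edgeR adjusted p = 4.64e-13). The treated libraries of *Chac1* agreed closely with each other and none reached the controls. *Trib3*, a pseudokinase that restrains AKT and ATF4 itself, had 37.3, 33.5 and 32 CPM in the controls and 19.1, 17.1 and 16.8 CPM in the treated libraries (log2 fold change −0.95, standard error 0.060, edgeR adjusted p = 5.27e-15). *Ddit4*, which encodes the mTORC1 inhibitor REDD1, had 159.9, 151 and 144 CPM and 82, 76.6 and 76.4 CPM (log2 fold change −0.95, standard error 0.045, edgeR adjusted p = 1.48e-18). For both genes the groups were far apart relative to the spread within them.

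The stress factors and enzymes of the list followed. *Atf3*, a transcription factor induced by stress, had 6.92, 7.97 and 7.09 CPM with DMSO and 3.62, 4.44 and 4.38 CPM with GSK2256098 (log2 fold change −0.82, standard error 0.11, edgeR adjusted p = 1.53e-06). *Nupr1*, a small stress-induced chromatin protein, had 15.8, 17.3 and 17.7 CPM and 11.6, 9.74 and 10.5 CPM (log2 fold change −0.68, standard error 0.075, edgeR adjusted p = 1.39e-08). In neither gene did the groups overlap, which the rule for naming the largest falls required. *Aldh1l2*, the mitochondrial enzyme that oxidises 10-formyltetrahydrofolate, had 119, 118 and 112 CPM with DMSO and 75.6, 71.1 and 70.4 CPM with GSK2256098 (log2 fold change −0.68, standard error 0.045, edgeR adjusted p = 1.18e-14), and *Cth*, the last enzyme of cysteine synthesis from methionine, had 29.8, 31.6 and 28.2 CPM and 20.6, 18.6 and 16.8 CPM (log2 fold change −0.68, standard error 0.067, edgeR adjusted p = 1.11e-09). Both metabolic genes fell by nearly the same step. The factor's own transcript fell too, *Atf4* having 309.8, 303 and 297 CPM in the controls and 238, 227 and 219 CPM in the treated libraries (log2 fold change −0.41, standard error 0.032, edgeR adjusted p = 1.46e-12), while *Ddit3*, encoding CHOP, had a log2 fold change of −0.56 (edgeR adjusted p = 5.31e-07) and *Asns*, asparagine synthetase, one of −0.38 (edgeR adjusted p = 5.51e-11). The enzymes that charge transfer RNA moved by smaller steps: *Aars* changed by −0.15, *Mars* by −0.18, *Sars* by −0.21 and *Gars* by −0.24 on the log2 scale. In bulk RNA, less of a transcript per cell and fewer cells that carry it cannot be told apart.

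Genes of hypoxia and glycolysis also fell. Under low oxygen the factor HIF-1 raises glucose transporters, glycolytic enzymes and genes for mitophagy and vessel growth. Of 29 members tested, 21 fell and 0 rose, against 6.09% of all genes that were lower, with a list median of −0.19 on the log2 scale. Without GSK2256098 replicate 1, 19 fell, and with GC and length trends removed 24 fell. HIF-1 binds a core that can read ACGTG, or CACGT on the other strand, and only this form was searched. The same 250 upstream bases (RefSeq, GRCm38.p6) are printed for the 3 members with the largest falls, with that form in capitals on either strand: *Ankrd37* at chr8:45999851-46000100 (minus strand), *Adm* at chr7:110627407-110627656 (plus strand) and *Bnip3* at chr7:138909507-138909756 (minus strand).
Ankrd37: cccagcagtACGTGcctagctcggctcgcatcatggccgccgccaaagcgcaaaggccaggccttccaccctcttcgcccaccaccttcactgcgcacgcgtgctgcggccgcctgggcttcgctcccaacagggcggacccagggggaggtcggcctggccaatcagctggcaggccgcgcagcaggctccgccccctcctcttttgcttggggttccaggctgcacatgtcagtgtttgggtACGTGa
Adm: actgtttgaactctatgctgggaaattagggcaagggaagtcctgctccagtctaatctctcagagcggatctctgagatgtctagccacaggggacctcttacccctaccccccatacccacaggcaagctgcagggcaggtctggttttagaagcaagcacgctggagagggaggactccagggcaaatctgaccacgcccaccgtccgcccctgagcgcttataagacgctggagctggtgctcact
Bnip3: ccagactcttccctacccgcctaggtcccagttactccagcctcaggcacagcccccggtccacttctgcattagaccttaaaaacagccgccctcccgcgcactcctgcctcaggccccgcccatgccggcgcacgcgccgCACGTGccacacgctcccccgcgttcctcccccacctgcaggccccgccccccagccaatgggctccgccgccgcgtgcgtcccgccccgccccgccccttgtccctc

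*Ankrd37* held 2 matches, the nearer starting 6 bases before the start. In *Bnip3* the 2 matches overlap, since CACGTG reads as the core on both strands. The *Adm* window held none, which says only that these letters are not in this stretch. Among the 21 members that fell, 14 of 20 with an entry (70.0%) held the core, as did 66.7% of the 27 tested members with an entry, against 18.5% of all genes in the table. The core is short and is also part of the E-box bound by MYC and clock factors. The list was made of genes of hypoxia and glycolysis, and all genes in the table include ones not tested here. Its excess therefore tells nothing of the drug.

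*Ankrd37*, an ankyrin repeat protein, had 13.6, 11.6 and 11.4 CPM with DMSO and 8.53, 8.03 and 7.5 CPM with GSK2256098 (log2 fold change −0.60, standard error 0.11, edgeR adjusted p = 0.000121). *Adm*, the vasodilator peptide adrenomedullin, had 22.6, 23.1 and 24.1 CPM and 15.3, 15.1 and 16.3 CPM (log2 fold change −0.58, standard error 0.066, edgeR adjusted p = 2.6e-08). *Bnip3*, a receptor for mitophagy, had 105, 100.2 and 93.9 CPM and 71.8, 72.8 and 72.1 CPM (log2 fold change −0.46, standard error 0.039, edgeR adjusted p = 1.38e-11). The treated libraries of all 3 genes lay below every control, with the treated libraries of *Bnip3* the most alike. *Ndrg1*, a differentiation gene raised by hypoxia, had 65.4, 66.5 and 65.4 CPM with DMSO and 52, 50.7 and 46.6 CPM with GSK2256098 (log2 fold change −0.40, standard error 0.042, edgeR adjusted p = 3.8e-09). Glycolytic enzymes fell by smaller steps: phosphoglycerate kinase *Pgk1* had 1755, 1724 and 1716 CPM with DMSO and 1457, 1418 and 1389 CPM with GSK2256098 (log2 fold change −0.29, standard error 0.030, edgeR adjusted p = 5.17e-09), lactate dehydrogenase *Ldha* changed by −0.24 on the log2 scale (edgeR adjusted p = 4.95e-07), *Gapdh* by −0.21 (edgeR adjusted p = 8.36e-06) and the glucose transporter *Slc2a1* by −0.19 (edgeR adjusted p = 0.000473). *Vegfa*, the vessel growth factor counted in the list of repair trophic factors, had 119, 114 and 118 CPM in the controls and 96.1, 95.1 and 93.8 CPM in the treated libraries (log2 fold change −0.30, standard error 0.041, edgeR adjusted p = 1.19e-06). *Epas1*, encoding HIF-2α, was not called (0.27, edgeR adjusted p = 0.107).

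**Figure D2:**
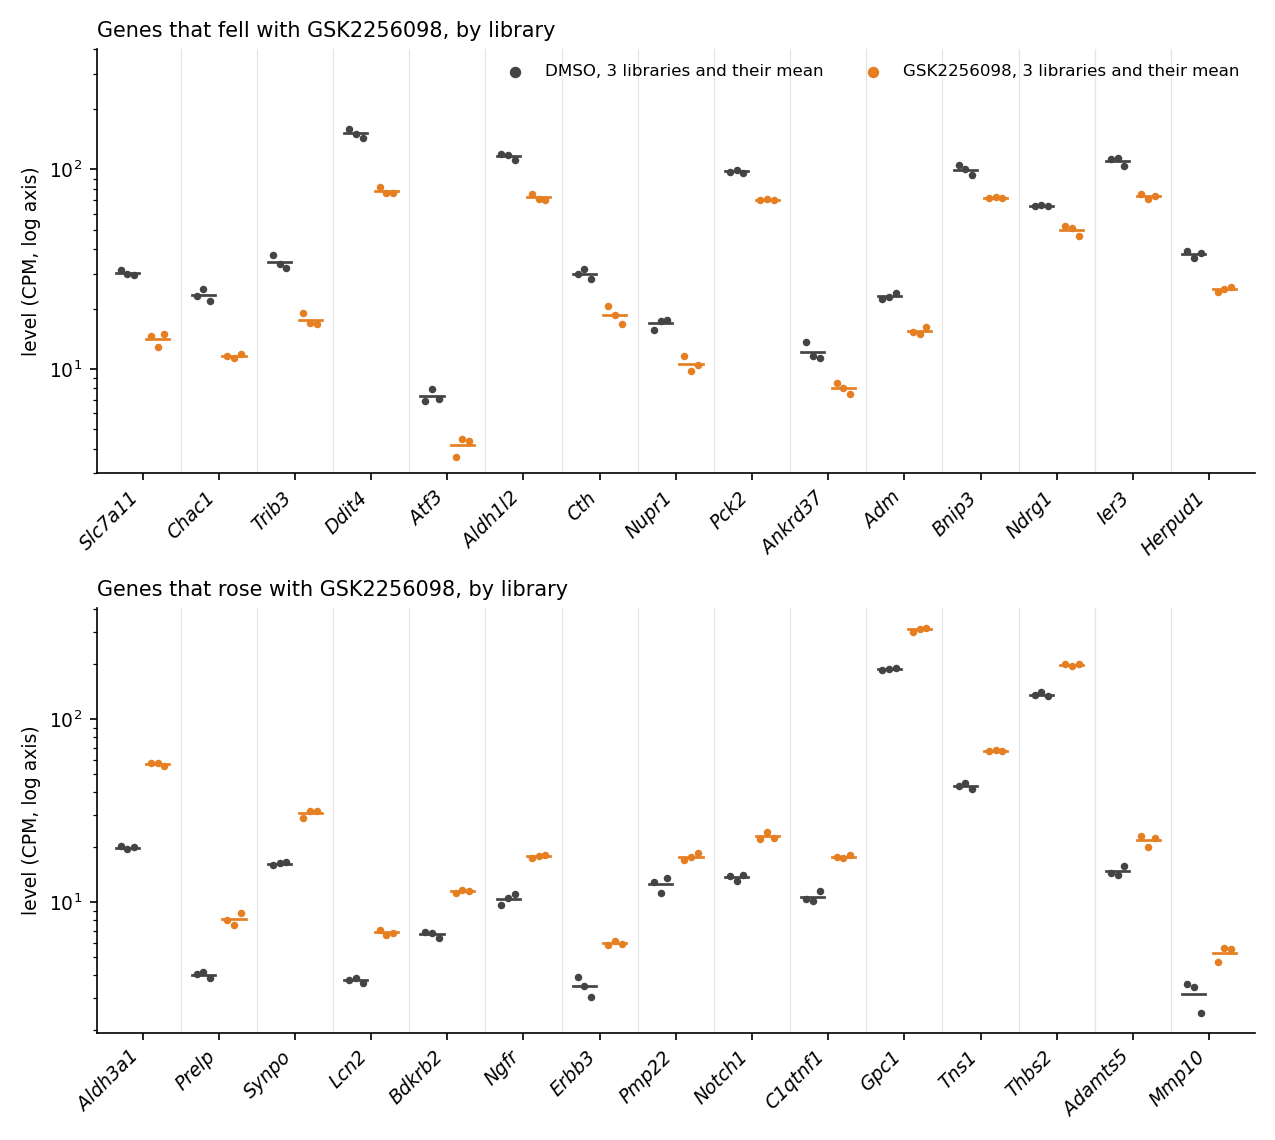
Level (CPM, log axis) in each of the 3 DMSO and 3 GSK2256098 libraries, with a bar at the mean of each group, for 15 genes that fell (top) and 15 that rose (bottom). The genes with the largest changes were chosen among those without overlap, as with *Slc7a11* (31.3, 29.8 and 29.7 CPM with DMSO and 14.6, 12.8 and 14.9 CPM with GSK2256098) and *Aldh3a1* (20.2, 19.4 and 19.9 CPM and 57.3, 57.8 and 55.2 CPM).

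Among genes of at least 5 CPM, the largest rise was that of *Aldh3a1* (chr11:61207537-61218421, GRCm38, plus strand), an aldehyde dehydrogenase that clears lipid and aromatic aldehydes. It had 20.2, 19.4 and 19.9 CPM with DMSO and 57.3, 57.8 and 55.2 CPM with GSK2256098. The treated libraries clustered tightly, 2.86-fold above the controls (log2 fold change 1.52, standard error 0.054, edgeR adjusted p = 1.4e-22). It belongs to the list of NRF2 antioxidant genes, of which 2 of 19 rose and 1 fell, near the 12.5% of all genes that were called. The other members called were *Gsta4*, a glutathione transferase (0.42, edgeR adjusted p = 0.0486), and *Hmox1*, the haem-degrading oxygenase, which had 28.5, 27.8 and 28.8 CPM with DMSO and 23.7, 20.3 and 20.9 CPM with GSK2256098 (log2 fold change −0.39, standard error 0.059, edgeR adjusted p = 7.46e-06). The call of *Gsta4* was lost under 9 of 14 alternatives, among them leaving out any GSK2256098 replicate or DMSO replicate 2 or 3 (edgeR adjusted p up to 0.248). With library totals alone or with only the 6 libraries of the comparison 4 members rose, and with GC and length trends removed 3 fell.

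The limit of 5 CPM was set on the mean of the 6 libraries, so that *Prelp* and *Lcn2*, under it in the controls, met it through the treated libraries. *Atf3*, under it in the treated libraries, met it through the controls. The genes with the largest changes were named only where the groups did not overlap. *Prelp*, a small leucine-rich proteoglycan of the matrix, had 4.03, 4.17 and 3.87 CPM with DMSO and 7.95, 7.46 and 8.77 CPM with GSK2256098 (log2 fold change 1.00, standard error 0.12, edgeR adjusted p = 4.56e-08). *Synpo*, synaptopodin, which bundles actin with α-actinin, had 15.9, 16.3 and 16.5 CPM and 28.7, 31.5 and 31.5 CPM (log2 fold change 0.91, standard error 0.058, edgeR adjusted p = 7.28e-15). *Lcn2*, a lipocalin that binds iron-carrying siderophores, had 3.75, 3.87 and 3.63 CPM and 7.06, 6.64 and 6.82 CPM (log2 fold change 0.86, standard error 0.12, edgeR adjusted p = 2.04e-06). Both groups were tight in each of these genes. *Gpc1*, the heparan sulphate proteoglycan glypican-1, had 186, 187 and 191 CPM with DMSO and 300.0, 312 and 317 CPM with GSK2256098 (log2 fold change 0.72, standard error 0.035, edgeR adjusted p = 1.89e-18). *Notch1*, the receptor whose cleaved form enters the nucleus, had 14, 13 and 14 CPM and 22, 24.3 and 22.6 CPM (log2 fold change 0.75, standard error 0.072, edgeR adjusted p = 4.46e-10). The remaining genes of the 12 rose by 0.68 to 0.78 on the log2 scale: the bradykinin receptor *Bdkrb2*, the tetraspanin partner *Ptgfrn*, the secreted *C1qtnf1* and *Olfm1*, the copper ferroxidase *Cp* and the neurotrophin receptor *Ngfr*.

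A number of Schwann cell genes rose. The list holds the lineage factor *Sox10*, receptors of immature and repair Schwann cells and proteins of compact myelin. Of 24 members tested, 11 rose and 0 fell, against 6.36% of all genes that were higher, and the list median was 0.29 (0.17 with only the 6 libraries and 0.052 with limma on log2(CPM + 4), which understates low genes). *Ngfr*, the p75 neurotrophin receptor, had 9.63, 10.5 and 11.1 CPM with DMSO and 17.5, 17.9 and 18.2 CPM with GSK2256098 (log2 fold change 0.77, standard error 0.076, edgeR adjusted p = 7.78e-10). *Erbb3*, the receptor for axonal neuregulin, had 3.89, 3.5 and 3.05 CPM and 5.81, 6.15 and 5.92 CPM (log2 fold change 0.78, standard error 0.12, edgeR adjusted p = 1.05e-05). *Pmp22*, a protein of compact myelin, had 12.8, 11.3 and 13.6 CPM and 17, 17.7 and 18.6 CPM (log2 fold change 0.50, standard error 0.078, edgeR adjusted p = 1.46e-05). In each the treated libraries lay above every control, which the rule for naming the largest changes required of *Ngfr*. *Cdh19*, a cadherin of the Schwann lineage, was low throughout, at 1.4, 1.58 and 1.69 CPM with DMSO and 2.86, 2.57 and 2.08 CPM with GSK2256098 (log2 fold change 0.68, standard error 0.17, edgeR adjusted p = 0.00573), and *Sox10* had 19.7, 20.3 and 20.3 CPM and 25.4, 28.7 and 29 CPM (log2 fold change 0.46, standard error 0.072, edgeR adjusted p = 1.28e-05). *Jun*, which drives the repair state, did not pass (−0.018, edgeR adjusted p = 0.84), nor did N-cadherin, *Cdh2* (−0.039, edgeR adjusted p = 0.495), and *Egr2* and *S100b* were under 0.5 CPM and uncalled. Without GSK2256098 replicate 3, 7 members rose, without replicate 1, 9 rose, and with GC and length trends removed 8 rose.

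Among genes of the extracellular matrix 11 were called higher and 1 lower, against 6.36% and 6.09% of all genes. Collagens and matrix glycoproteins form the substrate that integrins read. Of 23 tested, 11 did not pass, and the list median was 0.22. The count was 11 and 1 without GSK2256098 replicate 1, and 10 and 2 with a median of 0.14 with GC and length trends removed. *Thbs2*, thrombospondin-2, had 135, 140.1 and 134 CPM with DMSO and 201, 195 and 200.5 CPM with GSK2256098 (log2 fold change 0.55, standard error 0.029, edgeR adjusted p = 7e-17). *Col12a1*, a collagen that decorates fibrils, had 17.6, 18.9 and 19.4 CPM and 26.6, 27.7 and 27.5 CPM (log2 fold change 0.55, standard error 0.071, edgeR adjusted p = 5.18e-07). *Col18a1*, a basement membrane collagen, had 569, 565 and 551 CPM and 721, 735 and 728 CPM (log2 fold change 0.37, standard error 0.033, edgeR adjusted p = 5.51e-11). All 3 were higher in every treated library than in any control. *Col6a1* rose by 0.40 on the log2 scale (edgeR adjusted p = 0.000201), and fibronectin, *Fn1*, by 0.36 (edgeR adjusted p = 2.79e-09). The member that fell was the basement membrane linker *Nid1* (−0.13, edgeR adjusted p = 0.0085), and *Col1a2*, a chain of type I collagen, did not pass (−0.016, edgeR adjusted p = 0.786). *Col3a1*, which Schwann cells also make and which carries the sum of the fibroblast markers, had 342, 354 and 335 CPM with DMSO and 428, 446 and 442 CPM with GSK2256098 (log2 fold change 0.35, standard error 0.032, edgeR adjusted p = 8.88e-11).

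The list of proteases that cut the matrix, with their inhibitors, had 12 of 20 higher, 1 lower and a list median of 0.21, against 6.36% higher and 6.09% lower over all genes. *Adamts5*, which cleaves aggrecan and versican, had 14.5, 14.1 and 15.7 CPM with DMSO and 23, 20.0 and 22.5 CPM with GSK2256098 (log2 fold change 0.56, standard error 0.072, edgeR adjusted p = 3.13e-07). *Mmp10*, stromelysin-2, had 3.57, 3.42 and 2.47 CPM and 4.73, 5.62 and 5.56 CPM (log2 fold change 0.75, standard error 0.15, edgeR adjusted p = 0.00045). The groups did not overlap in these genes, although *Mmp10* rests on few reads. *Mmp15* rose by 0.70 on the log2 scale (edgeR adjusted p = 0.00522), and *Mmp9*, at under 1.5 CPM in every library, by 0.89 (edgeR adjusted p = 0.0252). The call of *Mmp9* was lost under 6 of 13 alternatives, among them leaving out GSK2256098 replicate 1 or 3 or DMSO replicate 2 or 3, with log2 fold changes from 0.16 to 1.00, and that of *Mmp15* without DMSO replicate 2. The inhibitor *Timp2* rose as well, by 0.44 (edgeR adjusted p = 8.88e-11), and it inhibits such enzymes. *Adam19*, a sheddase of neuregulin, was the member that fell (−0.23, edgeR adjusted p = 9.25e-06). Without GSK2256098 replicate 1, 10 rose and 1 fell.

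At the adhesions themselves, where FAK acts, 6 of 24 members rose and 1 fell, the latter being *Ptk2*, where 6.36% of all genes were higher and 6.09% lower, shares that also apply to the lists that follow. *Tns1*, tensin-1, which ties integrin tails to actin, had 43, 44.8 and 41.8 CPM with DMSO and 66.9, 68 and 66.8 CPM with GSK2256098 (log2 fold change 0.64, standard error 0.048, edgeR adjusted p = 1.05e-12). The treated libraries of *Tns1* were nearly identical and stood well above the controls. The crosslinker *Actn1* rose by 0.21 (edgeR adjusted p = 9.75e-06), zyxin, *Zyx*, by 0.20 (edgeR adjusted p = 0.000581) and the scaffold *Nedd9* by 0.18 (edgeR adjusted p = 0.00321) on the log2 scale. Among integrins and laminins, 6 of 22 rose and 1 fell, led by *Itgb3* (0.59, edgeR adjusted p = 0.0193), *Itgb8* (0.41, edgeR adjusted p = 0.0211), *Lama4* (0.36, edgeR adjusted p = 0.0121) and *Lamb2* (0.24, edgeR adjusted p = 8.7e-05), but without GSK2256098 replicate 3 only 2 rose and 1 fell (*Itgb3*, *Itgb8* and *Lama4* lost their calls, which *Itgb3* also did without DMSO replicate 3, *Itgb8* without GSK2256098 replicate 1 or DMSO replicate 2 or 3, and *Lama4* without GSK2256098 replicate 2), and with only the 6 libraries of the comparison 9 rose and 2 fell. Of actin and contractile genes under the serum response factor, 8 of 18 rose and 0 fell. *Filip1l*, a partner of filamin, had 71.8, 73.6 and 66.5 CPM with DMSO and 84.5, 82.2 and 81.8 CPM with GSK2256098 (log2 fold change 0.23, standard error 0.042, edgeR adjusted p = 0.000164), the non-muscle myosin *Myh9* rose by 0.19 (edgeR adjusted p = 0.00396) and *Tpm2* by 0.28 (edgeR adjusted p = 0.0027). *Myl9*, at 1.27, 0.714 and 0.494 CPM with DMSO and 1.34, 1.63 and 1.27 CPM with GSK2256098, was called although the lowest treated library was level with the highest control. Its call was lost under 8 of 13 alternatives, among them leaving out any GSK2256098 replicate or DMSO replicate 2 or 3, and those of *Myh9* and *Tpm2* without GSK2256098 replicate 3. The count of the list moved, with 2 members called without GSK2256098 replicate 3, and 5 without GSK2256098 replicate 1, DMSO replicate 2 or DMSO replicate 3, or with the GC and length trends removed.

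Some receptors and guidance cues of the cell surface rose, and no member of either list fell. Of axon guidance genes, 10 of 23 rose, and of receptor tyrosine kinases, Eph receptors and ephrins, 9 of 19 rose, against 6.36% of all genes. *Ntn1*, the secreted cue netrin-1, had 76.8, 87.9 and 81.6 CPM with DMSO and 116, 118 and 123 CPM with GSK2256098 (log2 fold change 0.53, standard error 0.043, edgeR adjusted p = 5.62e-12). *Nrp1*, a co-receptor of class 3 semaphorins, had 18.6, 20.1 and 20.6 CPM and 24.2, 26 and 25 CPM (log2 fold change 0.34, standard error 0.061, edgeR adjusted p = 0.000113). Neither had a treated library in the range of the controls, and *Plxna2* (0.30, edgeR adjusted p = 3.42e-06) and *Sema6a* (0.33, edgeR adjusted p = 0.0048) rose by smaller steps. *Efnb2*, a ligand of EphB receptors, had 174, 179.7 and 182 CPM with DMSO and 219, 231 and 233 CPM with GSK2256098 (log2 fold change 0.35, standard error 0.037, edgeR adjusted p = 5.17e-09), and *Ddr1*, a receptor for collagen, had 49.4, 51.5 and 50.3 CPM and 61.7, 63.4 and 67.8 CPM (log2 fold change 0.35, standard error 0.048, edgeR adjusted p = 1.6e-06). Both were higher in all treated libraries. *Efnb1* rose by 0.43 (edgeR adjusted p = 0.00112) and the receptor *Ephb2* by 0.29 (edgeR adjusted p = 1.05e-05). *Met*, the receptor for hepatocyte growth factor, moved the other way, with 239, 232 and 241 CPM in the controls and 213, 225 and 224 CPM in the treated libraries (log2 fold change −0.10, standard error 0.032, edgeR adjusted p = 0.0285). Its call was lost with library totals alone and without GSK2256098 replicate 1, DMSO replicate 1 or DMSO replicate 3 (edgeR adjusted p up to 0.154). In the list of the HGF and MET axis, of which 5 of 10 members were tested, *Gab1*, an adaptor of the receptor (0.25, edgeR adjusted p = 0.0104), and the protease *Plau* (0.43, edgeR adjusted p = 7.44e-05) rose, and *Hgf* had at most 3 counts in any library. Without DMSO replicate 1 only 1 member of that list was called. The calls of *Gab1* without GSK2256098 replicate 3 or DMSO replicate 1, and of *Sema6a* without GSK2256098 replicate 3, were lost.

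Readouts of growth signalling gave more lower than higher calls. Of genes that report ERK activity, 7 of 23 fell and 1, *Phlda1*, rose (0.14, edgeR adjusted p = 0.0296), against 6.09% and 6.36% of all genes. No member was called higher without GSK2256098 replicate 2 or 3 or DMSO replicate 2, or with GC and length trends removed. *Ier3*, an immediate-early survival gene, had 113, 115 and 105 CPM with DMSO and 75.7, 71.4 and 73.9 CPM with GSK2256098 (log2 fold change −0.59, standard error 0.045, edgeR adjusted p = 1.14e-12). *Dusp4*, a phosphatase that feeds back on ERK, had 40.4, 40.3 and 41 CPM and 32.8, 34.1 and 34.8 CPM (log2 fold change −0.26, standard error 0.055, edgeR adjusted p = 0.000898). The groups were apart in both genes, while the ETV factors *Etv4* (−0.076, edgeR adjusted p = 0.24) and *Etv5* (−0.11, edgeR adjusted p = 0.114) and the phosphatase gene *Dusp6* (−0.056, edgeR adjusted p = 0.53) did not pass. *Myc* had 378, 371 and 381 CPM in the controls and 316, 323 and 329 CPM in the treated libraries (log2 fold change −0.22, standard error 0.033, edgeR adjusted p = 5.07e-06). In the list of MYC and ribosome biogenesis, 8 of 25 fell and 2 rose, read against the same shares, the latter being the MYC antagonists *Mxd3* (0.20, edgeR adjusted p = 0.0276) and *Mxd4* (0.42, edgeR adjusted p = 0.00726). The call of *Mxd3* was lost under 4 of 14 alternatives, among them leaving out GSK2256098 replicate 2 or 3 or DMSO replicate 2, and that of *Mxd4* without GSK2256098 replicate 1 or DMSO replicate 2. *Odc1*, which makes polyamines, fell by 0.23 on the log2 scale (edgeR adjusted p = 1.79e-06). With GC and length trends removed, 10 ERK genes and 14 genes of the MYC list fell.

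Lists for the Hippo, TGF-β and NF-κB pathways came next, where 6.36% of all genes were higher and 6.09% lower. Of YAP and TEAD targets, which Merlin restrains, 5 of 23 rose and 3 fell, with a median of 0.020, and with GC and length trends removed 4 rose and 7 fell (median −0.011), while 7 rose and 5 fell with only the 6 libraries of the comparison. *Crim1* (0.26, edgeR adjusted p = 1.01e-07) and *Ajuba* (0.21, edgeR adjusted p = 0.000459) were among those that rose. In the list for TGF-β and BMP signalling 5 of 26 rose and 1 fell. The feedback gene *Pmepa1* (0.53, edgeR adjusted p = 3.72e-06) and the ligand *Tgfb3* (0.37, edgeR adjusted p = 2.15e-06) were among those that rose. Of NF-κB targets and chemokines 6 of 19 rose and 0 fell. *Ccl2*, which attracts monocytes, had 27.1, 26.2 and 27.9 CPM in the controls and 41.4, 39.9 and 35.5 CPM in the treated libraries (log2 fold change 0.53, standard error 0.056, edgeR adjusted p = 5.03e-09), and *Cxcl5* rose by 0.43 (edgeR adjusted p = 0.000146). No treated library of *Ccl2* reached down to the controls, but the list count fell to 3 without DMSO replicate 1.

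Lists for the cell cycle and cholesterol are read against the 12.5% of all genes that were called. Of 34 DNA replication genes 1 rose and 3 fell, the ribonucleotide reductase subunit *Rrm2* among the latter (−0.15, edgeR adjusted p = 0.000137), and of 30 mitosis genes 1, the spindle gene *Prc1*, rose (0.094, edgeR adjusted p = 0.0326). Cholesterol genes gave 2 higher and 2 lower of 24. The DNA replication count fell to 2 without GSK2256098 replicate 3 or DMSO replicate 1, 2 or 3, the mitosis count fell to 0 without GSK2256098 replicate 1 or 3 or DMSO replicate 2 or 3, and the cholesterol count fell to 1 without DMSO replicate 2 and to 2 without GSK2256098 replicate 2 or 3 or DMSO replicate 1. With only the 6 libraries of the comparison, 5 mitosis genes rose and 2 fell, and 5 cholesterol genes rose and 4 fell, and with GC and length trends removed 4 mitosis genes rose. The lists of interferon (4 higher, 0 lower of 30), PI3K and FOXO (3 and 3 of 23) and repair trophic factors (2 and 3 of 14) were mixed or sparse. The interferon count fell to 2 without GSK2256098 replicate 1 or 2 or DMSO replicate 2 or 3, and the trophic factor count fell to 1 without GSK2256098 replicate 3 or DMSO replicate 1 and to 2 without GSK2256098 replicate 1 or 2 or DMSO replicate 2 or 3. Heat shock genes gave 1 higher and 3 lower of 16, and with only the 6 libraries 2 and 6. Fatty acid synthesis gave 1 and 1 of 16, lysosome 1 and 3 of 23 and PPAR 1 and 3 of 13. The fatty acid count fell to 0 without GSK2256098 replicate 3 or DMSO replicate 1 and to 1 without GSK2256098 replicate 1 or DMSO replicate 2 or 3. The lysosome count fell to 0 without GSK2256098 replicate 3 or DMSO replicate 1 and to 1 without GSK2256098 replicate 2 or DMSO replicate 2 and to 2 without GSK2256098 replicate 1, and the PPAR count fell to 2 without GSK2256098 replicate 2 or 3 or DMSO replicate 1 or 2. Single members stood apart from the controls. *Herpud1*, of the endoplasmic reticulum chaperone list (3 higher, 2 lower of 19, with 3 called without GSK2256098 replicate 2 or DMSO replicate 3), had 38.9, 36.1 and 38 CPM with DMSO and 24.3, 25.1 and 25.9 CPM with GSK2256098 (log2 fold change −0.59, standard error 0.051, edgeR adjusted p = 3.11e-11). *Cdkn1a*, encoding the cell cycle inhibitor p21 and 1 of 3 lower members among 17 p53 targets tested (5 lower with GC and length trends removed), had 15.7, 16.6 and 15.7 CPM and 10.8, 10.9 and 9.54 CPM (log2 fold change −0.62, standard error 0.085, edgeR adjusted p = 1.38e-06). *Tapbp*, an interferon list member that helps load peptide onto MHC class I, had 114, 115 and 118 CPM and 145, 153 and 155 CPM (log2 fold change 0.38, standard error 0.034, edgeR adjusted p = 5.09e-11). The treated libraries of these genes were wholly apart from the controls, which the rule for naming the largest changes required of *Cdkn1a*. *Hist1h2af* was also among the 12 largest falls (−0.64, edgeR adjusted p = 0.00101), but it shares near-identical copies with other histone genes and its count is uncertain.

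**Figure D3:**
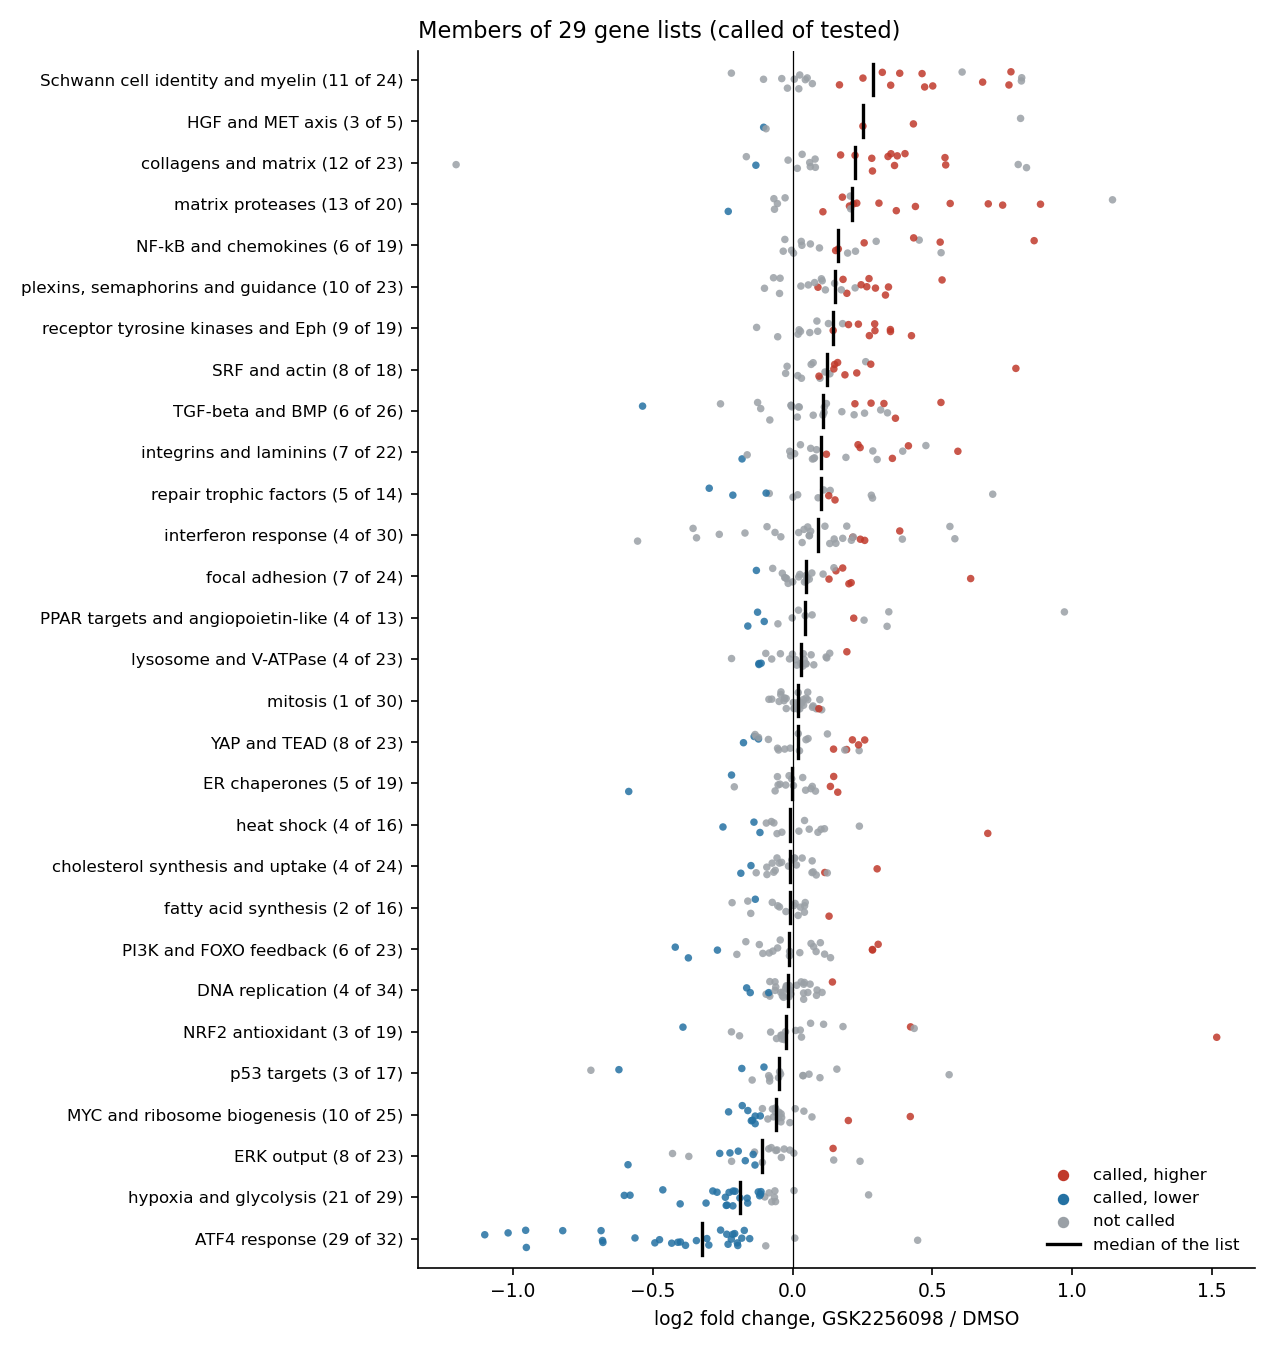
Log2 fold change of GSK2256098 over DMSO for the tested members of 29 gene lists, ordered by the list median (black bar), with members called higher in red, called lower in blue and not called in grey, and the number called of those tested beside each name. The ATF4 list (29 of 32 lower) and the list of hypoxia and glycolysis (21 of 29 lower) lie furthest to the left, and the Schwann cell list, with a median of 0.29, lies furthest to the right.

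GSK2256098 was then set against the other kinase inhibitors at the same dose and time, using each drug's own libraries, in 3 comparisons with p-values adjusted over genes within each. The 3 comparisons and that with DMSO share the GSK2256098 libraries. Against defactinib 1846 genes were called (11.5%), 947 higher (5.89%) and 899 lower (5.59%) with GSK2256098, and 35 (0.218%) of them by at least 2-fold. The libraries of the groups did not overlap for 28.4% of genes, and 24.2% had an unadjusted p under 0.05. Without defactinib replicate 1 the number was 1123, and with GC and length trends removed 1273 genes were higher and 853 lower. The ATF4 list separated the drugs, with 25 of 32 members lower and 0 higher with GSK2256098, and a list median of −0.38. *Slc7a11* had 39.8, 40.4 and 39.7 CPM with defactinib and 14.6, 12.8 and 14.9 CPM with GSK2256098 (log2 fold change −1.50, standard error 0.058, edgeR adjusted p = 1.34e-21). *Pck2*, the mitochondrial enzyme that makes phosphoenolpyruvate, had 144, 146 and 148 CPM and 70.0, 71.2 and 69.9 CPM (log2 fold change −1.06, standard error 0.035, edgeR adjusted p = 1.06e-23). Both were higher with defactinib and lower with GSK2256098 than in the controls, where *Pck2* had 97.5, 99.9 and 96.2 CPM. *Aldh1l2* was 1.84-fold lower than with defactinib (edgeR adjusted p = 7.5e-18), while *Atf3* did not differ past the threshold (−0.029, 95% interval −0.30 to 0.24).

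Higher than with defactinib were *Aldh3a1*, with 30.6, 31.4 and 29.5 CPM there (log2 fold change 0.90, standard error 0.051, edgeR adjusted p = 2.44e-16), *Krt80*, an intermediate filament keratin (0.86, edgeR adjusted p = 6.02e-09), *Siglecg*, a sialic acid receptor (0.75, edgeR adjusted p = 5.58e-07), and *Synpo* (0.63, edgeR adjusted p = 1.4e-10). *Krt80* and *Siglecg* were not called against DMSO. Of hypoxia and glycolysis genes 2 were higher and 6 lower, with a median of −0.0035, and *Bnip3* differed by −0.069 (95% interval −0.15 to 0.016). Of Schwann cell genes 2 were higher and 1 lower, near the share of all genes (5.89% and 5.59%), against which the counts that follow are read too. *Notch1* (0.0075, 95% interval −0.13 to 0.15) and *Ngfr* (0.13, 95% interval −0.024 to 0.27) were not called, and these intervals bound the difference without showing that the drugs act alike. Integrins and laminins were lower with GSK2256098 in 11 of 22 and higher in 0, chaperones of the endoplasmic reticulum in 10 of 19 and 0, and receptor tyrosine kinases and Eph genes in 7 of 19 and 0. Actin genes under the serum response factor were higher in 7 of 18 and lower in 0, and DNA replication genes were higher in 15 of 34 and lower in 2.

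Of the 3 comparisons, that with VS-4718 gave the most calls. Against it 4355 genes were called (27.1%), 2056 higher (12.8%) and 2299 lower (14.3%) with GSK2256098, a split that library totals alone moved to 1669 and 2849, and 142 (0.884%) were at least 2-fold apart. The libraries did not overlap for 38.4% of genes, and 36.4% had an unadjusted p under 0.05. Of the ATF4 list 28 members were higher and 0 lower with GSK2256098, with a median of 0.34, the opposite side from the comparisons with DMSO and defactinib. *Chac1* had 3.77, 3.23 and 2.89 CPM with VS-4718 and 11.6, 11.4 and 11.8 CPM with GSK2256098, a 3.51-fold difference (log2 fold change 1.81, standard error 0.11, edgeR adjusted p = 2.56e-16). *Trib3* had 5.03, 6.38 and 5.51 CPM with VS-4718, 3.14-fold below GSK2256098 (edgeR adjusted p = 2.36e-18), and *Ddit4* had 34.3, 37.2 and 33.7 CPM, 2.24-fold below (edgeR adjusted p = 6.02e-20). Among DMSO, VS-4718 and GSK2256098, each of these genes was lowest with VS-4718 and highest with DMSO. Hypoxia and glycolysis genes were higher with GSK2256098 in 23 of 29 and lower in 0, and cholesterol genes in 17 of 24 and 0. The ERK-dependent ETV factors, picked here after their values were seen, also separated these drugs, *Etv4* having 50.0, 50.9 and 45.1 CPM with VS-4718 and 97.9, 94.3 and 96.6 CPM with GSK2256098 (log2 fold change 0.99, standard error 0.043, edgeR adjusted p = 2.93e-20) and *Etv5* being 2.02-fold higher with GSK2256098 (edgeR adjusted p = 7.87e-19).

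Many Schwann cell, adhesion and matrix genes were lower with GSK2256098 than with VS-4718. *Ngfr* had 37.5, 36.2 and 32.4 CPM with VS-4718 and 17.5, 17.9 and 18.2 CPM with GSK2256098 (log2 fold change −0.98, standard error 0.063, edgeR adjusted p = 2.7e-15), and of Schwann cell genes 12 of 24 were lower and 2 higher with GSK2256098. Focal adhesion genes were lower in 17 of 24 and higher in 0, and collagens and matrix genes lower in 11 of 23 and higher in 3. These 3 lists are read against the 14.3% of all genes that were lower and the 12.8% that were higher with GSK2256098. *H2afx*, the histone variant marked at DNA breaks, had 156, 145 and 138 CPM with VS-4718 and 70.4, 70.4 and 68.1 CPM with GSK2256098 (log2 fold change −1.07, standard error 0.045, edgeR adjusted p = 1.03e-20) and was not called against DMSO (edgeR adjusted p = 0.0657). *Mxd4* was 1.91-fold lower than with VS-4718 (edgeR adjusted p = 2.19e-10), and the histone gene *Hist2h2be*, whose near-identical copies make its count uncertain, was 1.96-fold lower (edgeR adjusted p = 7.55e-09). *Aldh3a1* went the other way and was 1.14-fold higher with GSK2256098 than with VS-4718 (edgeR adjusted p = 0.00194), and *Bdkrb2* did not differ past the threshold (−0.017, 95% interval −0.20 to 0.16).

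**Figure D4:**
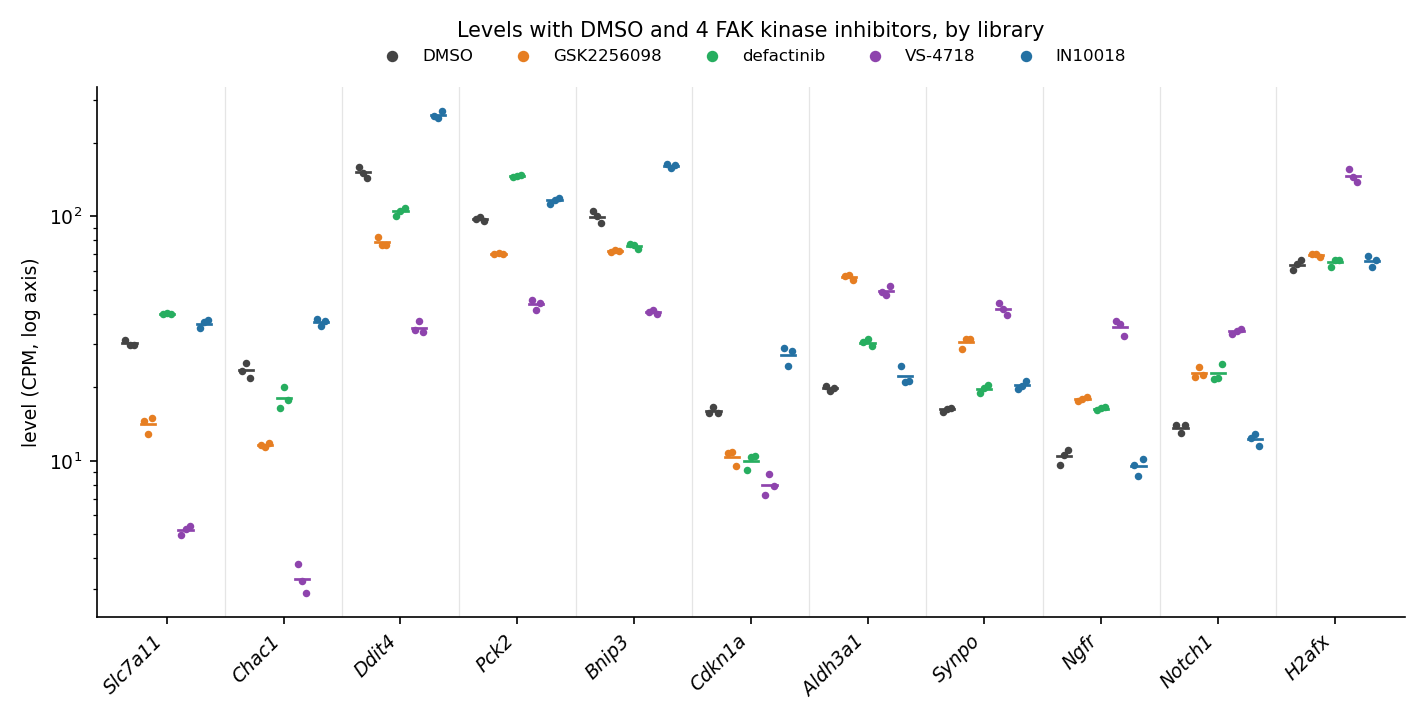
Level (CPM, log axis) of 11 genes in the 3 libraries each of DMSO, GSK2256098, defactinib, VS-4718 and IN10018, all drugs at 1 µM for 24 h, with bars at the group means. With GSK2256098, *Slc7a11*, *Chac1* and *Ddit4* lie above VS-4718 and below DMSO, *Aldh3a1* is highest with GSK2256098 (56.8 ± 1.39 CPM, SD, n = 3), and *H2afx* is raised with VS-4718 (146 ± 8.95 CPM) beside 69.6 ± 1.33 CPM with GSK2256098.

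Against IN10018, 3366 genes were called (20.9%), 1794 higher (11.2%) and 1572 lower (9.78%) with GSK2256098, and 112 (0.697%) were at least 2-fold apart. The libraries did not overlap for 35.3% of genes, and 31.4% had an unadjusted p under 0.05. The lists of ATF4 and of hypoxia and glycolysis were lower with GSK2256098. Of the ATF4 list 28 of 32 members were lower and 0 higher (median −0.49), and of hypoxia and glycolysis genes 27 of 29 were lower and 0 higher (median −0.46). *Ddit4* had 257, 252 and 270.3 CPM with IN10018 and 82, 76.6 and 76.4 CPM with GSK2256098, 3.32-fold lower (log2 fold change −1.73, standard error 0.044, edgeR adjusted p = 7.75e-28). *Bnip3* had 164, 158 and 162 CPM and 71.8, 72.8 and 72.1 CPM (log2 fold change −1.16, standard error 0.038, edgeR adjusted p = 1.41e-24), and *Cdkn1a* had 28.9, 24.5 and 28.1 CPM and 10.8, 10.9 and 9.54 CPM (log2 fold change −1.39, standard error 0.080, edgeR adjusted p = 1.08e-16). In these genes IN10018 stood above DMSO and GSK2256098 below it. *Chac1* (3.2-fold, edgeR adjusted p = 8.33e-21) and *Trib3* (2.92-fold, edgeR adjusted p = 1.16e-22) were lower as well.

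Many surface and matrix genes were higher with GSK2256098 than with IN10018. *Aldh3a1* had 24.5, 20.9 and 21.3 CPM with IN10018 and 57.3, 57.8 and 55.2 CPM with GSK2256098, 2.55-fold higher (log2 fold change 1.35, standard error 0.054, edgeR adjusted p = 1.16e-21). *Ngfr* had 9.65, 8.66 and 10.2 CPM and 17.5, 17.9 and 18.2 CPM (log2 fold change 0.91, standard error 0.079, edgeR adjusted p = 1.05e-11), and *Notch1* had 12.4, 12.8 and 11.5 CPM and 22, 24.3 and 22.6 CPM (log2 fold change 0.91, standard error 0.075, edgeR adjusted p = 2.92e-12). With IN10018 the levels of *Ngfr* overlapped those with DMSO, and those of *Notch1* lay below them. *C1qtnf1* was 1.86-fold higher (edgeR adjusted p = 1.23e-11). The list counts that follow are read against the 11.2% of all genes that were higher and the 9.78% that were lower. Of collagens and matrix genes 17 of 23 were higher and 0 lower, of matrix proteases 11 of 20 and 0, of guidance genes 16 of 23 and 0, and of Schwann cell genes 10 of 24 and 1. Of DNA replication genes 3 were higher and 0 lower of 34, and the 95% interval of the difference in *Rrm2* was −0.060 to 0.057 on the log2 scale.

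**Figure D5:**
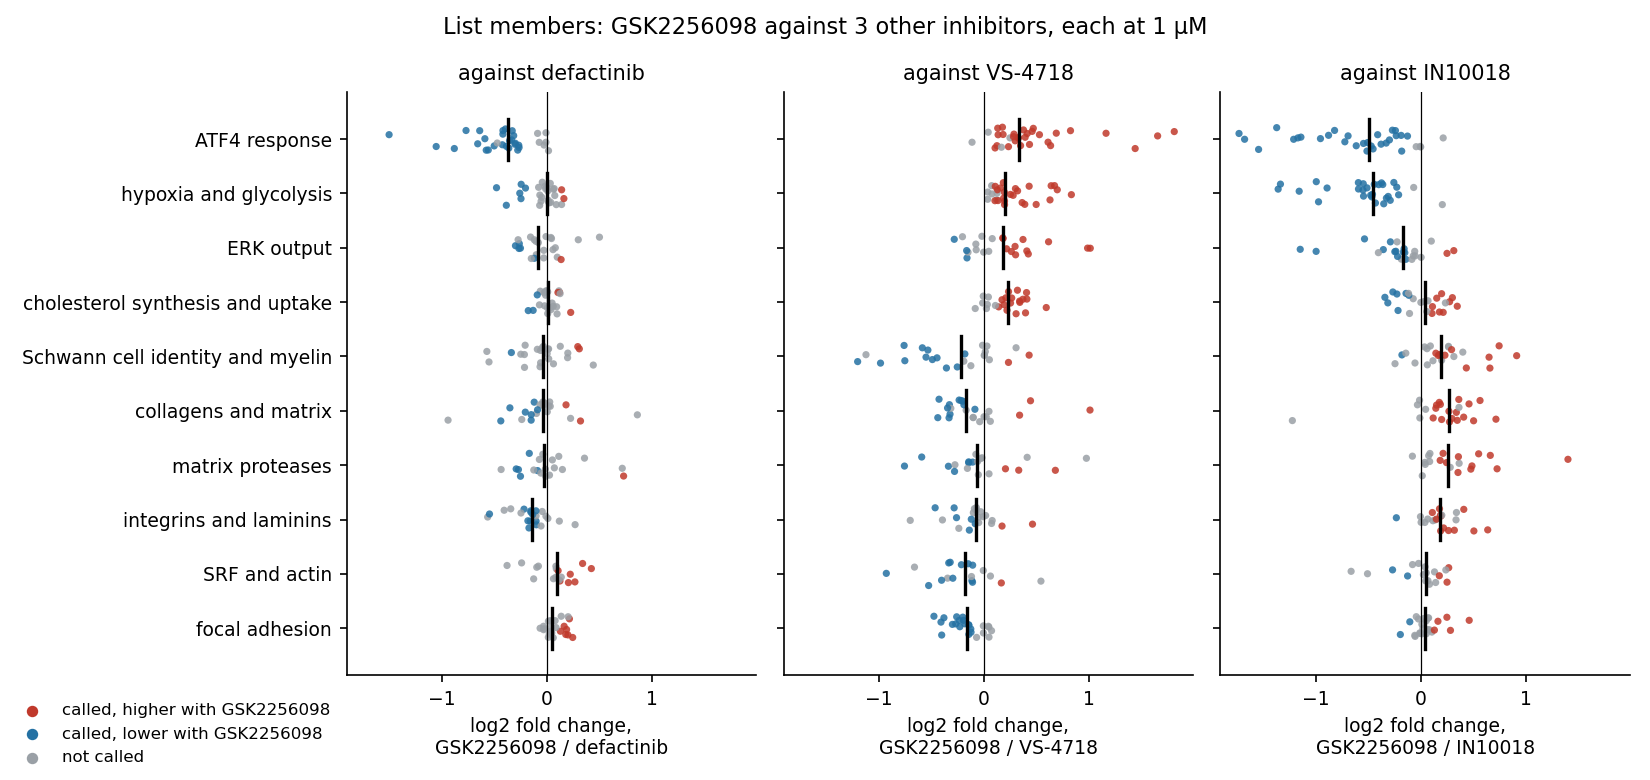
Log2 fold change of GSK2256098 over defactinib, VS-4718 and IN10018 for the tested members of 10 lists, with list medians as black bars and members called higher or lower with GSK2256098 in red and blue. The ATF4 medians are −0.38, 0.34 and −0.49, and those of hypoxia and glycolysis −0.0035, 0.20 and −0.46.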

How the data were processed

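MS03 cells were treated for 24 h and frozen pellets were sequenced by a commercial service from poly(A)-selected RNA. Per the submitters' processing notes, reads were trimmed with Trimmomatic 0.36, aligned to GRCm38 with STAR 2.5.2b and counted with featureCounts of Subread 1.5.2, and the annotation and strand setting are not given in the sources used here. The authors deposited raw counts, whole numbers of reads per gene, for 49315 genes in 24 libraries. Of these identifiers 49056 were in GENCODE M21, which gave positions, GC content and transcript length. Reads of overlapping genes or near-identical copies may have been split.

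The quasi-likelihood test of edgeR 4.0.16 (R 4.3.3, with TMM scaling and filterByExpr) was run in 1 fit over all 8 groups with 16 residual degrees of freedom, so that groups shared the estimate of spread, and p-values were adjusted by Benjamini-Hochberg over 16070 genes. The CPM values printed are scaled by TMM. Means are given with SD, and standard errors are those of the log2 fold change. Genes were named by rule: the 12 largest changes in each direction against DMSO and the 4 against each other inhibitor among called genes of at least 5 CPM whose groups did not overlap, up to 4 called members of each list, and *Ptk2* and *Met*. The limit of 5 CPM was on the mean of the 6 libraries compared, so either group could lie below it. Further genes were named after their values were seen. The members, 29 gene lists and 7 marker lists were chosen with earlier results of these data known. Alternatives were library totals alone, no filter on low counts, only the 6 libraries of the comparison, limma-trend (limma 3.58.1) on log2(CPM + 4), DESeq2 1.42.0, a replicate block, small RNA genes left out, a 2-fold minimum, leaving out each replicate and, added after seeing the data, removal of GC and length trends. The scripts were tested on simulated data. Upstream sequences came from RefSeq tables of GRCm38.p6.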

Additional observations from a re-analysis of the deposited data

How the results depend on the processing

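Against DMSO the count of called genes stayed within 1.5 times of 2001 with library totals alone (1242 higher, 808 lower), without a filter (880, 910), with small RNA genes left out (1055, 1025), with only 6 libraries (1385, 1495), limma (927, 899), DESeq2 (895, 1050) and with GC and length trends removed (847, 1178). A 2-fold minimum left 34 genes against DMSO, 35 against defactinib, 142 against VS-4718 and 112 against IN10018, since fewer genes meet both limits. Leaving out 1 replicate gave 1298 to 1622 genes against DMSO (lowest without GSK2256098 replicate 3), 1123 to 1511 against defactinib (lowest without defactinib replicate 1), 7 to 10 Schwann cell genes (lowest without GSK2256098 replicate 3) and −0.15 to −0.11 for *Ptk2*. The cause of these moves was not tested. Samples with the same replicate number did not deviate together (r = −0.18, −0.15 and 0.050 across genes), so the numbers were not taken as pairs, and a replicate block gave 994 higher and 960 lower genes. Of 148 single-gene results, 104 kept direction and call under every alternative run, 44 lost the call under at least 1, and 0 reversed. The counts of the ATF4, hypoxia, matrix and protease lists stayed within 1.5 times of their values, and those of 16 of 24 other lists did not under at least 1 alternative.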

Other observations

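Genes known to respond to the aryl hydrocarbon receptor, a ligand-activated transcription factor that raises enzymes of xenobiotic metabolism, were looked at after the rise of *Aldh3a1* had been seen. Of 7 such genes, *Aldh3a1* included, 5 were called higher and 0 lower, a description of genes picked for this pattern (6.36% of all genes were higher). *Cyp1a1*, a cytochrome P450, had 0.407, 0.451 and 0.453 CPM with DMSO and 1.07, 1.14 and 1.08 CPM with GSK2256098 (log2 fold change 1.32, standard error 0.28, edgeR adjusted p = 0.000959), and *Cyp1b1* had 0.226, 0.15 and 0.453 CPM and 0.536, 1.1 and 0.949 CPM (log2 fold change 1.64, standard error 0.34, edgeR adjusted p = 0.00081). Both are near the low end of detection, yet no treated library overlapped the controls. The receptor gene *Ahr* had 49.3, 52.6 and 54.3 CPM and 60.2, 68.4 and 64.8 CPM (log2 fold change 0.31, standard error 0.044, edgeR adjusted p = 2.59e-06), and its repressor *Ahrr* rose by 0.52 (edgeR adjusted p = 0.0321). *Tiparp* (−0.11, edgeR adjusted p = 0.0894) and *Nqo1* (0.43, edgeR adjusted p = 0.139) did not pass. Whether the drug acts on the receptor was not tested.

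Of 15 circadian clock genes, also gathered after seeing the values, 5 fell and 0 rose, also a description (6.09% of all genes were lower). *Bhlhe40*, a repressor of clock genes that hypoxia induces as well, had 79.3, 76.9 and 78 CPM with DMSO and 49.8, 49.3 and 47.8 CPM with GSK2256098 (log2 fold change −0.67, standard error 0.046, edgeR adjusted p = 5.74e-14). *Ciart*, another repressor, had 9.63, 10.5 and 9.72 CPM and 6.39, 6.36 and 6.82 CPM (log2 fold change −0.61, standard error 0.10, edgeR adjusted p = 4.61e-05). All treated libraries lay below the controls in both, which the rule for naming the largest changes required. They did so in *Bhlhe41* (−0.49, edgeR adjusted p = 0.00569), *Per1* (−0.21, edgeR adjusted p = 0.00739) and *Cry1* (−0.24, edgeR adjusted p = 0.0113) too. Time of harvest within the day is not given for single samples. Of 7 genes of the Notch pathway, gathered in the same way, 1 rose and 1 fell, against 6.36% and 6.09% of all genes, which says nothing of the pathway. The former was *Notch1*, and the latter, its target *Nrarp*, had 0.859, 1.39 and 1.07 CPM with DMSO and 0.625, 0.53 and 0.633 CPM with GSK2256098 (log2 fold change −0.90, standard error 0.30, edgeR adjusted p = 0.0398), and the target *Hes1* was not called (0.055, edgeR adjusted p = 0.767).

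Several small RNA genes were high in single libraries of both groups. *Rny3* had 0.0905, 6.69 and 0.0824 CPM with DMSO and 7.55, 0 and 0 CPM with GSK2256098. *Rn7s2* had 0.0452, 6.88 and 0.0824 CPM with DMSO and 7.06, 0.0407 and 0.0452 CPM with GSK2256098, and *Rn7sk* had 9.32, 32 and 13.8 CPM with DMSO and 78, 10.7 and 9.45 CPM with GSK2256098. DMSO replicate 2 and GSK2256098 replicate 1 carried the high values of each. Of 280 small RNA genes tested, 4 were called higher and 1 lower, a smaller share than the 12.5% of all genes: *Mir365-2*, *mt-Tm*, *mt-Tl2* and *mt-Te* were higher and *mt-Tp* was lower.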
